A study of Schizosaccharomyces pombe with 40 samples.

Results

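The 100 protein-coding genes described here form a burst of expression in the middle of fission yeast meiosis, and were chosen by their levels in wt cells. For each of 5152 coding features, the level at a stage was the mean over 2 replicates of log2(CPM + 1), with CPM the counts scaled to the library's total. In wt, 641 coding features were highest at 4 h or 5 h after induction. These were ordered by a score, the level at the highest stage minus the median of the other 9 stages, and the 100 highest scores were kept. They had their highest wt stage at 4 h in 50 cases and at 5 h in 50 cases. Poly(A)+ RNA had been counted in 40 libraries, 2 biological replicates per group, and the table held 12684 features, which were fitted together after a filter on low counts. Total counts ran between 22889781 and 35440184 per library, and 3 counts corresponded to between 0.0846 and 0.131 CPM. All 100 genes passed the filter, among 12019 features tested.

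The kloopmut strain was a haploid h- strain with the alleles leu1-32, pat1-L95G::kanR and snR107kloopmut. In the last of these, a conserved motif in the kink-loop of the box C/D snoRNA snR107, between its D' and C' boxes, was replaced by its reverse complement. The wt strain was a haploid h- strain with leu1-32 and pat1-L95G::kanR, so both strains carried the analog-sensitive Pat1 kinase. Each strain was sampled as growing cells in EMM (V), after starvation overnight in EMM without nitrogen (-N), and hourly at 1 to 8 h after 25 µM 3-MB-PP1 was added together with leucine and NH4Cl. Such a meiosis starts from haploid cells that have no homologous chromosomes to pair, which limits it as a model. A replicate number was read as naming a culture from which aliquots were drawn hour after hour, so p-values within a strain rest on 2 cultures.

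Pat1 is a kinase that keeps the meiotic programme off, and its inhibition starts premeiotic replication, recombination, the meiotic divisions and spore formation in that order. Waves of transcription accompany these steps. The forkhead factor Mei4 is the known activator of the middle wave, which contains genes for the divisions and for the forespore membrane, and its binding sites carry the letters GTAAACA. Before meiosis, the RNA-binding protein Mmi1 removes many meiotic transcripts, and snR107 is studied for its part in the mutual control of Mmi1 and its inhibitor Mei2.

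The letters GTAAACA, on either strand, stood in 32 of the 100 promoter windows, each running 250 bases before to 50 bases after the annotated start. Over all 5136 promoters of that length the share was 16.5%. The letters were in 15 of the 50 genes highest at 4 h and in 17 of the 50 highest at 5 h. Other sets of letters were rare. ACGCGT, the site of the MBF factor, stood in 1 window (3.23% of all promoters), TTCTTTGTT, the core of the Ste11 site, in 1 (1.99%), and TGACGTCA, the site of bZIP factors, in 1 (0.273%). All were searched on both strands, and a match is a description of letters only.
The windows below are from the RefSeq sequence of build ASM294v3, in which all 100 genes had the coordinates of the count table. They are those of the meikin gene moa1, of mei4 itself, of the spore wall gene mok13, and of ask1, which had the most matches and was chosen after its values were seen. Each is written 5' to 3' on the strand of its gene, with GTAAACA or its reverse complement in capitals.
moa1 (chrI:3728985-3729284, minus strand): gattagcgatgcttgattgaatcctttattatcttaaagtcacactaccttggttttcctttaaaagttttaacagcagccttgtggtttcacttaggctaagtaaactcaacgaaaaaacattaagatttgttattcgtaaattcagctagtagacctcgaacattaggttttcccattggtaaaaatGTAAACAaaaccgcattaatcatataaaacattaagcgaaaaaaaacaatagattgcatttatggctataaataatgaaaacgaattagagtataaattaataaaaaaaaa
mei4 (chrII:1472818-1473117, plus strand): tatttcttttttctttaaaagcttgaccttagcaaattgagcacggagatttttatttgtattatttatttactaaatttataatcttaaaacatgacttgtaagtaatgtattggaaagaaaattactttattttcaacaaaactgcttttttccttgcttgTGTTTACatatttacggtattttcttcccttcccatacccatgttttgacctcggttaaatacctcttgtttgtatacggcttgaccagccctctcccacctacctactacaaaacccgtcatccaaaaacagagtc
mok13 (chrII:3597186-3597485, plus strand): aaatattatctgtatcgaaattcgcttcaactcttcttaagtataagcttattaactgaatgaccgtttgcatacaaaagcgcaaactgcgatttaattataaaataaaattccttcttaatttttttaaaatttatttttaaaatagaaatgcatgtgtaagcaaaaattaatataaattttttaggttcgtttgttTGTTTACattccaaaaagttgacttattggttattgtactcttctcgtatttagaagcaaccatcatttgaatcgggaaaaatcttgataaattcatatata
ask1 (chrII:1563602-1563901, minus strand): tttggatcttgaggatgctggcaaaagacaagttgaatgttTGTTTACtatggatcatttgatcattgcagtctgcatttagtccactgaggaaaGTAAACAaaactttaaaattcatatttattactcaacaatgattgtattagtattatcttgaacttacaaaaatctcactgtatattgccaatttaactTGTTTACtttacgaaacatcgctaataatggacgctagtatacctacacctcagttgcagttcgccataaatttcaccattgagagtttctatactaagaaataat

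By the rule's own values, the scores ran between 1.55 and 5.94 with a median of 1.96. The 8 highest belonged to spo5, adg2, crs1, ght3, gcd1, ght1, moa1 and map4. The 3 genes just inside the limit were cmb1 (1.56), pof15 (1.55) and SPAC25B8.08 (1.55), and the 3 just outside were pre10 (1.55), SPBC26H8.13c (1.54) and nte1 (1.54). A symbol was known for 81 genes and not for 19. Of the 91 coding genes with the prefix mug, which marks genes raised in meiosis, 8 were among the 100. The same was true of 3 of the 12 genes with the prefix spo, for sporulation, of 4 of the 8 with ght, for hexose transporters, and of 4 of the 28 with atg, for autophagy.

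The genes lay on chromosome I in 53 cases, on II in 31 and on III in 16, against 45.5% of all coding genes for I and 36.4% for II. One exon was annotated for 67 of the 99 genes with known exons, or 67.7%, against 51.7% of all coding genes. Neighbours were found among them: 17 stood next to another, in 9 pairs. The only run of 3 was ght3, shu1 and str3 on chromosome I, 82936 to 90289, which carries a gluconate transporter, a haem receptor and a further transporter. In 4 of the 9 pairs the genes overlapped. SPAC630.06c and gyp7 shared 2806 bases, tcg1 and egt2 1380, and mug123 and taf6 1001. A pair of spo5 with pcf1 on chromosome II shared 127 bases at the converging ends.

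The counting strand is not given in the sources used here, and overlap therefore touches every value below. Of the 100 genes, 14 shared no base with another feature and 22 shared under 10% of their length, while 15 shared over 90%. For 67 genes the feature with the widest overlap was an lncRNA on the opposite strand. In 60 of these 67, the log2 levels of gene and lncRNA correlated over the 40 libraries with r above 0.9, the median r was 0.988 and the lowest -0.65. This r is a description, since the libraries share cultures and the features share bases. For 33 of the 67, the lncRNA's RPKM at the gene's highest wt stage was at least that of the gene. If strand was not used in the counting, reads of a gene and of its antisense partner cannot be told apart, and whether it was used was not tested.

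In both strains the median level of the genes went up after 1 h, and in kloopmut it crested later and stood higher at the end. Through V, -N, 1 h and 2 h this median was 4.70, 5.37, 4.78 and 5.21 in kloopmut, against 4.75, 5.42, 4.72 and 5.33 in wt. The median over the genes of log2(CPM + 1), averaged over cultures, was 5.88, 6.72, 7.22, 7.30, 6.58 and 6.04 in kloopmut at the 6 times from 3 h to 8 h. It was 6.32, 6.94, 7.30, 6.53, 5.41 and 5.31 in wt at these times. On this scale, CPM from total counts, the strains thus crossed between 5 h and 6 h. The rule kept genes highest at 4 h or 5 h in wt, which favours high wt values there and lower ones at 6 h. The crossing is therefore a description only. The same order of the strains held on it at each of these times whichever culture was taken. With TMM scaling, the scaling of the fit, the order at 6 h depended on the culture. The medians there were 7.32 and 7.34 in kloopmut and 7.28 and 7.42 in wt. With TMM both kloopmut cultures were below both wt cultures at 5 h and above them at 7 h. The genes' share of all counts was largest in kloopmut at 6 h, with 4.80% and 4.74% in the 2 cultures, and in wt at 5 h, with 5.85% and 5.96%.

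**Figure D1:**
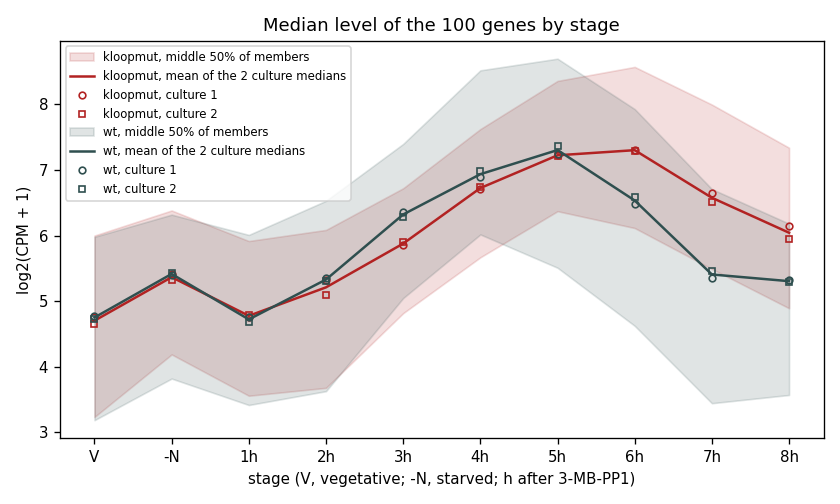
Median level of the 100 genes by stage. The x axis gives the stage and the y axis log2(CPM + 1). Lines join the means of the 2 culture medians, symbols are single cultures, and bands span the middle 50% of the genes. The kloopmut line is highest at 6 h and the wt line at 5 h, the stage at which 50 of the genes were chosen in wt.

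The genes were chosen on wt alone, and their course in kloopmut was not used by the rule. In kloopmut, 93 of the 100 genes were higher at 5 h than in -N cells by edgeR's quasi-likelihood test with Benjamini-Hochberg adjustment over all features, at an adjusted p below 0.05. Over all 12019 features this share was 29%. Another 2 genes were lower, against 30.6% of all features, and 5 did not pass. The median change was 1.99 on the log2 scale, with -0.04 over all features. Between 89 and 96 genes passed when any 1 culture was left out. The 2 that were lower were SPCC794.04c, a transporter, and gti1, named for inducing gluconate transport. SPCC794.04c was chosen after its values were seen.

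The steps between successive hours showed the rise to extend to 6 h in kloopmut with TMM scaling. From 3 h to 4 h, 73 genes were higher and 0 lower, against 7.25% and 7.87% of all features, with a median change of 0.74. From 4 h to 5 h, 71 were higher and 0 lower, against 11.9% and 9.01% of all features, with a median change of 0.67. From 5 h to 6 h, 54 were higher and 1 lower, against 20.2% and 13.8% of all features, with a median change of 0.45. The gene that was lower in this last step was crs1. These counts of higher genes divided by the wt stage: of the genes highest at 4 h in wt, 10 of 50 were higher at 6 h than at 5 h in kloopmut, and of those highest at 5 h in wt, 44 of 50.
The calls of the 5 h to 6 h step depended on the scale. TMM scaling, the scaling of the fit, holds the bulk of features level between libraries, and all features had a median of 0.01 in this step with TMM and of -0.42 with total counts. With total counts 26 genes were higher and 24 lower and their median was 0.02. Without kloopmut culture 1 the genes called were 44 in the step to 4 h, 47 in the step to 5 h and 34 in the step to 6 h. Without kloopmut culture 2 the calls were 43 in the step to 4 h and 34 in the step to 6 h.

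Lower calls outnumbered higher ones after 6 h. From 6 h to 7 h in kloopmut, 12 genes were higher and 32 lower, against 21.4% and 23.1% of all features, and the median change was -0.20. Of the 50 genes highest at 4 h in wt, 3 were higher and 19 lower, with a median of -0.40, and of the 50 highest at 5 h, 9 were higher and 13 lower, with a median of 0.04. With total counts 0 were higher and 70 lower, and with DESeq2 18 were higher and 31 lower. From 7 h to 8 h, 0 were higher and 58 lower, against 14.2% and 10.6% of all features, with a median of -0.47. Calls fell to 19 in the first of these steps and to 21 in the second without kloopmut culture 1, and to 23 and 25 without culture 2. At 8 h the genes were a median 1.51 log2 units below their own highest stage in kloopmut and 2.31 below it in wt, on the log2(CPM + 1) scale, the wt stages being those the rule used.

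Gene by gene, 85 of the 100 had a later highest stage in kloopmut than in wt, 12 had the same stage and 3 an earlier one. Among the other 541 coding genes highest at 4 h or 5 h in wt, 327 (60.4%) were later. The wt stages are those the rule used, and the other 541 genes had lower scores by that rule. The 2 shares are therefore a description only. On this scale, CPM from column totals, the shift was 1 stage in 75 of the 85, 2 in 9 and 3 in 1, spo13. Of the genes highest at 4 h in wt, 34 had moved to 5 h in kloopmut, 7 kept 4 h, 7 had moved to 6 h, 1 to 7 h and 1 to -N cells. Of those highest at 5 h in wt, 41 had moved to 6 h in kloopmut, 5 kept 5 h, 2 had moved to 7 h, 1 to -N cells and 1 to V cells. The 3 earlier ones were dak2 and SPCC794.04c (-N) and ted1 (V), chosen after their values were seen. In 84 of 100 genes both kloopmut cultures gave the same highest stage, and in 80 both wt cultures did.
On RPKM, counts divided by feature length and by TMM-scaled library size, the stages moved later in both strains. On that scale 39 genes peaked at 6 h and 36 at 7 h in kloopmut. In wt 27 peaked at 4 h, 39 one hour later and 31 at 6 h. The number later in kloopmut was 84 on that scale. There spo13 was highest at 6 h in wt and at 7 h in kloopmut, a smaller shift than on CPM.

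**Figure D2:**
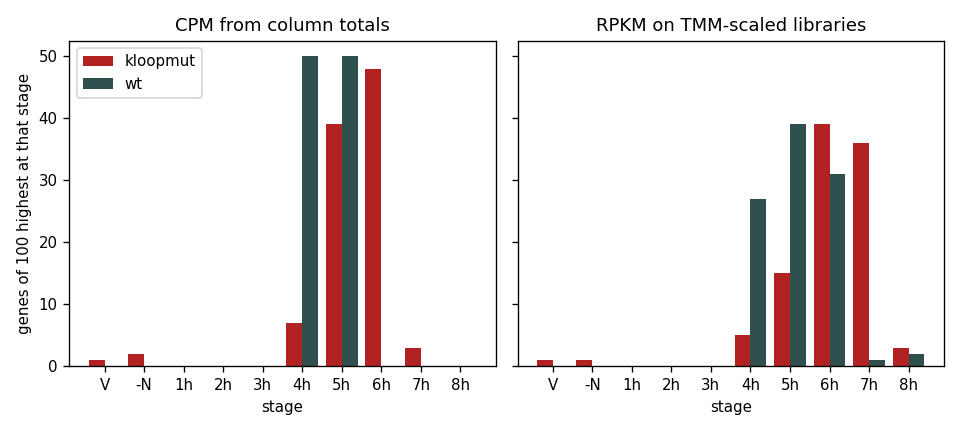
Number of the 100 genes highest at each stage, in kloopmut and in wt, with CPM from column totals (left) and with RPKM on TMM-scaled libraries (right). The x axis gives the stage and the y axis a count of genes. On the left the wt bars are 50 and 50 by the rule that chose the genes, and the kloopmut bars are 39 at 5 h and 48 at 6 h.

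**Figure D3:**
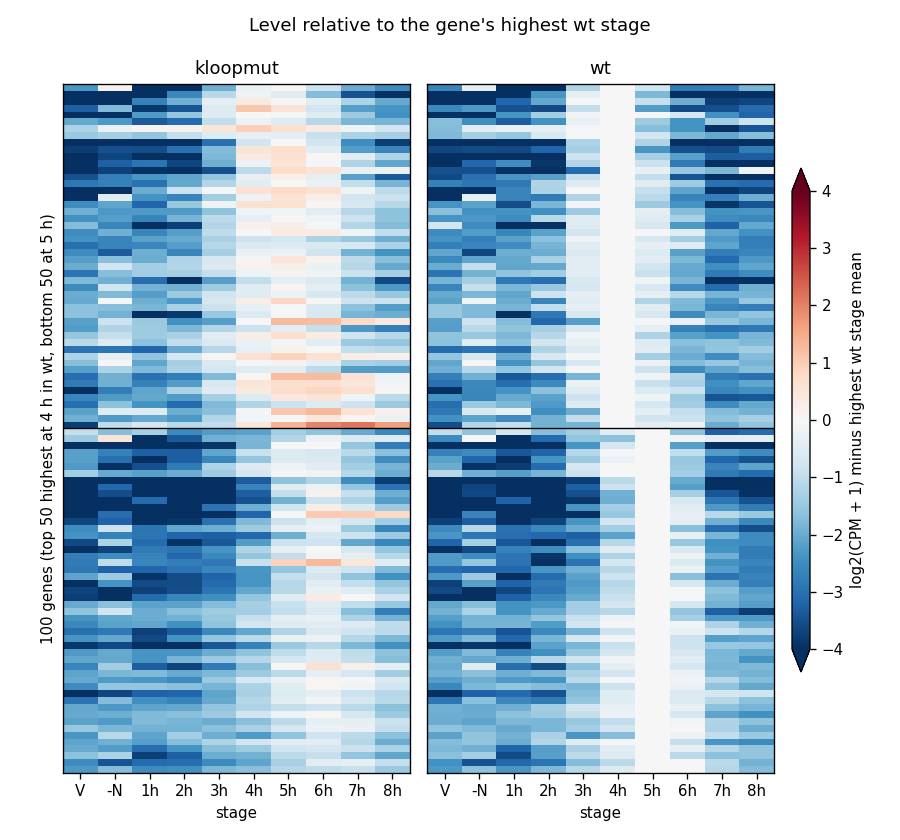
Level of each of the 100 genes by stage in kloopmut (left) and wt (right). Rows are genes, ordered by their highest wt stage and then by their highest kloopmut stage, columns are stages, and colours give log2(CPM + 1) minus the gene's highest wt stage mean, limited to -4 and 4. Of the genes in the lower block, 41 of 50 are highest at 6 h in kloopmut.

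The levels reached at the highest stage lay on both sides of those of wt. The highest stage of a gene was above that of wt in kloopmut for 44 genes, with a median difference of -0.06 on the log2(CPM + 1) scale and a range between -1.20 and 2.15. It was over 1 unit higher in kloopmut for 7 genes (spo13, SPAC29A4.23, mpf2, SPAPB17E12.09, spo2, SPAPJ695.02 and zym1) and over 1 unit lower for 2 (adg2 and ssa1). More stages stood within 1 log2 unit of the highest in kloopmut for 60 genes, fewer for 4 and as many for 36. The median number of such stages was 4 in kloopmut and 3 in wt. The rule favoured genes with a narrow course in wt, so these counts are a description and nothing is read from them. Genes of both sets that are outside the naming rule were listed after their values were seen.

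The named genes with roles in the divisions and in sporulation are given first. The values below are RPKM on TMM-scaled libraries, so comparison between genes is per length. The RNA-binding protein gene spo5, needed for the second division and for spores, had 721 and 816 RPKM in kloopmut at 4 h, against 1409 and 1587 in wt. At 6 h it had 1096 and 1093 RPKM in kloopmut, against 231 and 180 in wt. At 8 h it had 215 and 213 in kloopmut, against 53.6 and 48.0 in wt. The replicates did not overlap at any of these hours, kloopmut being lower at 4 h and higher at 6 h and 8 h. Such separation was common over all features, so it is given only as a description: both kloopmut replicates were below both wt replicates in 39.8% of features at 4 h and 43.5% at 5 h, and above both in 44.96% at 6 h, 42.6% at 7 h and 36.7% at 8 h. Among the 100 genes this held for 82 at 4 h and 66 at 5 h, and for 53 at 6 h, 85 at 7 h and 81 at 8 h. Averaged over 4 to 8 h, the log2 difference of spo5 was 1.50 ± 0.09 (SE of the fit). For this SE and those below, the fit took hourly aliquots of the same 2 cultures per strain as separate samples. The SE can therefore be too small. Each such average also includes the wt values at 4 h and 5 h, which were used to choose the genes.

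The cyclin gene crs1 kept its highest stage at 4 h in both strains. Its levels were 101 and 123 RPKM in kloopmut at 4 h, against 148 and 149 in wt, and 61.0 and 51.2 in kloopmut at 6 h, against 17.1 and 16.0 in wt. Kloopmut was thus below wt at 4 h and above it at 6 h. Its averaged log2 difference was 0.83 ± 0.12 (SE). The overlapping gene ade9, on the opposite strand, covers 37.2% of crs1.

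The meikin gene moa1, which sets kinetochores to face one pole in the first division, was expressed at a low level. It had 31.8 and 33.3 RPKM in kloopmut at 5 h, against 4.78 and 3.82 in wt, and 17 and 21.5 in kloopmut at 6 h, against 0.962 and 0.831 in wt. At 4 h the values were 27.5 and 25.9 in kloopmut and 18.4 and 24.1 in wt. The kloopmut replicates were above both wt replicates at all 3 hours, and closest to them at 4 h. In wt at 8 h the 2 replicates were 1.21 and 7.05 RPKM, so a single wt library stood apart there. The averaged log2 difference was 2.11 ± 0.30 (SE), among the 4 highest of the 100.

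The forespore membrane genes spo2 and spo13 encode proteins of the meiotic spindle pole body, on which the membrane that encloses each spore is built. The level of spo13 was 466 and 439 RPKM in kloopmut at 7 h, against 32.0 and 31.3 in wt, and its highest wt values were 123 and 91.3 RPKM at 6 h. At 8 h it was 360 and 357 RPKM in kloopmut, against 35.1 and 39.6 in wt. No overlap was seen at either hour, and spo13 was the gene whose highest level lay furthest above that of wt. Its averaged log2 difference was 1.98 ± 0.07 (SE). The level of spo2 was 328 and 300 RPKM in kloopmut at 7 h, against 31.6 and 45.2 in wt, with an averaged log2 difference of 1.63 ± 0.10 (SE).

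The forkhead gene mei4 had 59.1 and 70.4 RPKM in kloopmut at 5 h, against 172 and 170 in wt. At 7 h it had 131 and 152 RPKM in kloopmut, against 54.9 and 60.7 in wt. The strains were close at 6 h, with 168 and 181 RPKM in kloopmut and 185 and 205 in wt. Kloopmut was thus lower early and higher late, and the difference averaged over 4 to 8 h was 0.04 ± 0.07 (SE). It was 0.46 with total counts and -0.0043 with DESeq2, and without wt replicate 1 or kloopmut replicate 2 it was below 0. An antisense lncRNA covers 66.7% of mei4 and followed it over the 40 libraries (r = 0.997).

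The phosphatase gene cdc25, which activates the kinase of the divisions, was still low at 5 h in kloopmut. At 5 h it had 26.6 and 26.9 RPKM in kloopmut, against 159 and 166 in wt. At 7 h it had 114 and 109 RPKM in kloopmut, against 76.9 and 72.9 in wt. The averaged log2 difference was -0.69 ± 0.05 (SE). The meiotic cyclin gene rem1 had 14.6 and 14.1 RPKM in kloopmut at 4 h, against 38.8 and 38.9 in wt, and 33 and 45.5 in kloopmut at 7 h, against 15.5 and 14.6 in wt. Both genes were thus lower early in kloopmut and higher at 7 h. The averaged difference of rem1 was -0.05 ± 0.10 (SE) and turned to 0.37 with total counts. The alpha-glucan synthase gene mok13, for the spore wall, had 30.4 and 33.2 RPKM in kloopmut at 5 h, against 87.0 and 89.6 in wt. Its averaged difference was -0.31 ± 0.07 (SE) and turned to 0.11 with total counts. The fitted difference of mok13 was 0.79 at 7 h and 1.17 at 8 h, so it was lower in kloopmut over part of the course only.

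The 4 highest averaged differences were those of moa1 and spo13, described above, and of tht2 and pfd4. The gene tht2, for nuclear fusion after mating, had 121 and 116 RPKM in kloopmut at 7 h, against 9.80 and 10.9 in wt. Its averaged log2 difference was 1.94 ± 0.07 (SE). The prefoldin subunit gene pfd4, for the folding of tubulin and actin, had 170 and 144 RPKM in kloopmut at 7 h, against 8.65 and 11.1 in wt, and an averaged difference of 2.28 ± 0.12 (SE). Neither overlapped between strains at 7 h. All of pfd4 lies on antisense lncRNA features. The mismatch-binding protein gene cmb1 differed by 1.65 ± 0.07 (SE) and reached 187 and 216 RPKM in kloopmut at 7 h, against 36.1 and 40.8 in wt.

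Other genes with high scores encode a cell separation protein, sugar transporters, a dehydrogenase and an agglutination protein. The cell separation gene adg2 was the most abundant of the named genes. It had 1623 and 1736 RPKM in kloopmut at 5 h, against 7733 and 8049 in wt, and 1843 and 1609 in kloopmut at 7 h, against 509 and 499 in wt. The gluconate transporter gene ght3 had 134 and 138 RPKM in kloopmut at 4 h, against 392 and 311 in wt, and 379 and 325 in kloopmut at 7 h, against 80.3 and 89.5 in wt. The glucose transporter gene ght1 had 18.6 and 23.3 RPKM in kloopmut at 5 h, against 47.9 and 83.3 in wt, and 42.2 and 40.6 in kloopmut at 7 h, against 8.36 and 10.2 in wt. In all 3 genes kloopmut was below wt first and above it at 7 h, with no overlap at these hours.
The gene gcd1, annotated as a glucose-6-phosphate dehydrogenase, had 180 and 204 RPKM in kloopmut at 5 h, against 336 and 477 in wt, and 165 and 176 in kloopmut at 7 h, against 28.7 and 48.6 in wt. Its averaged log2 difference was 0.36 ± 0.12 (SE), or 0.16 without wt replicate 1. That of adg2 was -0.30 ± 0.07 (SE), or 0.13 with total counts, that of ght3 was 0.59 ± 0.11 (SE) and that of ght1 was 0.32 ± 0.14 (SE), or 0.16 without wt replicate 1. The agglutination gene map4, for the contact of mating cells, had 30.5 and 32.1 RPKM in kloopmut at 5 h, against 176 and 183 in wt, and 94.3 and 88.8 in kloopmut at 7 h, against 40.4 and 39.96 in wt. It differed by -0.57 ± 0.05 (SE) on average.

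The 4 lowest averaged differences belonged to ssa1, gti1, atg2 and ntp1. The chaperone gene ssa1, of the heat shock protein family Hsp70, had 291 and 352 RPKM in kloopmut at 5 h, against 1334 and 1401 in wt. At 8 h it had 344 and 366 RPKM in kloopmut, against 721 and 625 in wt. Unlike the genes above, it was still lower in kloopmut at 8 h, and its averaged log2 difference was -1.37 ± 0.09 (SE).
The trehalase gene ntp1 had 35.9 and 44.6 RPKM in kloopmut at 5 h, against 124 and 130 in wt, and 42.1 and 40.7 in kloopmut at 8 h, against 68.1 and 56 in wt. It differed by -0.97 ± 0.06 (SE). The gene gti1 had 8.19 and 11.2 RPKM in kloopmut at 5 h, against 44.9 and 46.5 in wt, and differed by -1.03 ± 0.06 (SE). Kloopmut was below wt in both at 5 h, without overlap. The fitted difference of gti1 was 0.41 at 3 h and -0.23 at 8 h, so it was lower in kloopmut over part of the course only.

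Autophagy genes did not share one course. They were singled out after their values were seen, except atg2. The gene atg2, for a lipid transfer protein of the autophagosome, had 12.9 and 14.3 RPKM in kloopmut at 6 h, against 44.9 and 48.7 in wt, and differed by -0.98 ± 0.06 (SE). The fitted difference of atg2 was -0.17 at 7 h and 0.19 at 8 h, and neither passed the threshold. The beclin gene atg6 had 28.1 and 31.6 RPKM in kloopmut at 6 h, against 9.01 and 7.63 in wt, and differed by 1.04 ± 0.06 (SE). The averaged differences were -0.13 ± 0.06 (SE) for atg14, a subunit of the same lipid kinase complex as atg6, and -0.43 ± 0.05 (SE) for atg22, a vacuolar amino acid transporter.

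**Figure D4:**
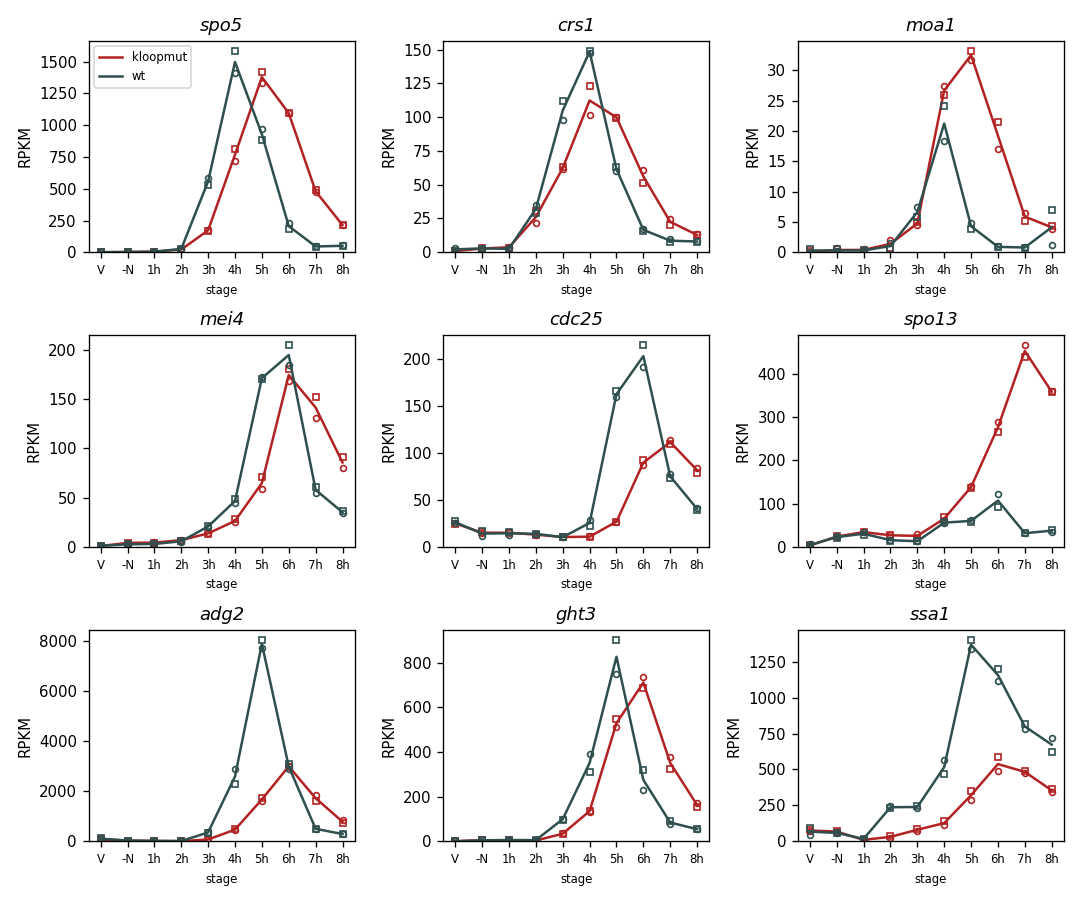
RPKM on TMM-scaled libraries of 9 named genes by stage. The x axis gives the stage and the y axis RPKM from 0, lines join the means of 2 replicates, and circles and squares are replicates 1 and 2. For spo13 the kloopmut values at 7 h are 466 and 439 RPKM against 32.0 and 31.3 in wt, and for ssa1 kloopmut is below wt at 8 h.

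The other 2 genes just inside the limit, pof15 and SPAC25B8.08, had smaller differences than cmb1. The F-box gene pof15 had 241 and 247 RPKM in kloopmut at 5 h, against 279 and 290 in wt, with an averaged difference of 0.05 ± 0.08 (SE). SPAC25B8.08 had 42.2 and 44.4 RPKM in kloopmut at 4 h, against 73.2 and 67.9 in wt, and differed by -0.28 ± 0.06 (SE), or by 0.14 with total counts.

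Between strains at the same hour, the wt values that chose the genes stand on one side, so the counts are given with their background and nothing is read from them. At 3 h, 2 genes were higher in kloopmut and 62 lower, against 14% and 12.8% of all features. At 4 h, 4 were higher and 68 lower, against 24.6% and 26.4%. At 5 h, 21 were higher and 57 lower, against 34% and 35.4%, and with total counts 42 and 40. At 6 h, 49 were higher and 34 lower, against 36.7% and 31.8%, with total counts 71 and 10, and with DESeq2 39 and 39. At 7 h, 79 were higher and 9 lower, against 34.4% and 30.7%, and with total counts 86 and 0. At 8 h, 71 were higher and 8 lower, against 26.1% and 27.2%.
The median log2 differences of the 100 genes were -0.52, -0.74, -0.67, 0.37, 1.11 and 0.85 at the 6 times from 3 h to 8 h. The 5 h value was -0.049 with total counts, -0.21 for members with under 10% overlap and -0.11 for members chosen on wt culture 2 and compared with wt culture 1. The 6 h value was -0.018 for members chosen on wt culture 1 and compared with wt culture 2, 0.77 with the wt cultures exchanged, 0.20 with DESeq2, 0.21 without kloopmut replicate 1, 0.73 for members with under 10% overlap and 1.16 with total counts. Over all features the medians were between -0.04 and 0.11. With total counts the median of all features moved to 0.61 (5 h), 0.91 (6 h) and 0.48 (7 h). The genes highest at 4 h in wt had a median of 0.35 at 5 h, and those highest at 5 h one of -1.46. In wt, for comparison with the kloopmut steps above, the median change between 5 h and 6 h was -0.26 and -0.28 in the 2 cultures, on the TMM-scaled log2(CPM + 1) scale, and it was 0.48 and 0.42 in those of kloopmut.

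**Figure D5:**
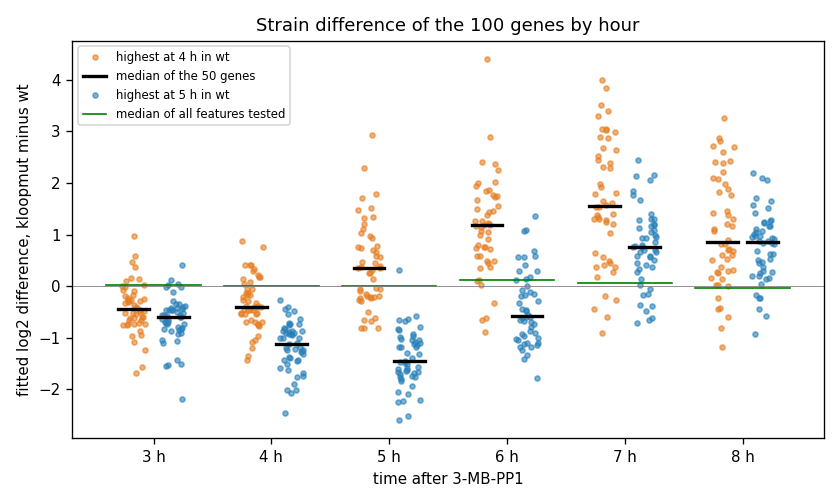
Fitted log2 difference, kloopmut minus wt, of the 100 genes at 3 to 8 h. Each point is a gene, coloured by its highest wt stage, black bars are medians over 50 genes and green lines the median of all features tested. At 5 h the medians are 0.35 for the genes highest at 4 h in wt and -1.46 for those highest at 5 h.

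The other coding genes placed kloopmut behind wt by the clock, though with a lower likeness than between wt cultures. Each kloopmut library was placed on the interpolated wt course, in steps of 0.1 h, at the time where 5003 coding genes outside the 100 correlated best with it. The 2 kloopmut cultures were placed at 2.6 h for 3 h, 3.3 h for 4 h, 3.9 h for 5 h, 4.4 h and 4.5 h for 6 h, 6.0 h for 7 h, and 6.5 h and 6.6 h for 8 h. Placing each wt culture on the other missed the clock by at most 0.2 h. The likeness was lower for kloopmut at 6 h (r = 0.538 and 0.540) than for wt at 6 h (r = 0.974 and 0.976). In kloopmut r was 0.776 and 0.770 at 5 h, 0.744 and 0.740 at 7 h, and 0.778 and 0.744 at 8 h. In wt it was 0.944 and 0.943, 0.981 and 0.980, and 0.968 and 0.967 at these hours. A placed time is thus the best match, which need not be a close one.
Set against wt at the placed time, the median difference of the 100 genes was -0.16, -0.08, 0.03, 0.20, -0.05 and -0.07 at the 6 times from 3 h to 8 h. Single genes remained apart at the placed times, averaged over 4 to 8 h and both cultures: spo13 by 2.01, spo2 by 1.43, pfd4 by 1.42 and cmb1 by 1.40, and in the other direction ssa1 by -1.01, atg2 by -0.86 and ntp1 by -0.78. Whether the lag accounts for the differences of the 100 genes was not tested beyond these values.

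The lists of genes with known roles, written with earlier results of these data known, were counted beside the 100 genes. Of the lists, cell cycle and meiotic divisions held 4 of the 100 genes (crs1, rem1, cdc25 and moa1), forespore membrane 2 (spo2 and spo13), regulators 1 (mei4), spore wall 1 (mok13), and spindle, septation initiation, mde genes, and recombination 0. In kloopmut at 5 h against -N, where 29% of all features were higher and 30.6% lower, 11 of 14 forespore membrane genes were higher and 1 lower, with a median of 1.67, and 10 of 11 spore wall genes were higher and 1 lower, with a median of 2.48. Of 24 cell cycle and division genes, 16 were higher and 4 lower, with a median of 0.86, and the median of all features was -0.04. Between strains at 5 h, where 34% of all features were higher in kloopmut and 35.4% lower, 0 of 11 spore wall genes were higher in kloopmut and 11 lower, with a median of -1.53, while 14 of 16 recombination genes were higher and 1 lower, with a median of 1.60. At 7 h, where 34.4% of all features were higher and 30.7% lower, 10 of 14 forespore membrane genes were higher and 2 lower, with a median of 1.52. Of 11 spore wall genes 3 were higher at 7 h, a share near that of all features, and 6 lower, with a median of -0.50.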

How the data were processed

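The counts were deposited by the authors in 1 table, as raw whole numbers of reads for each feature and library. Per the submitters' processing notes, the authors used bcl2fastq 2.20, fastp 0.23.1, STAR 2.6.1d and featureCounts of Subread 2.0.6. The annotation release, the strand setting and the handling of reads with several matches are not given in the sources used here. The names in the table's header stood 1 place off the data and were moved back. Symbols and promoters came from RefSeq ASM294v3, in which 12602 of 12684 features were found and 12594 had the same coordinates.

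Counts were fitted with edgeR 4.0.16 in R 4.3.3, with filterByExpr on 20 groups (12019 features kept, 665 removed), TMM factors between 0.513 and 1.47, 1 mean per group and quasi-likelihood F tests. Tests were two-sided, with Benjamini-Hochberg adjustment over the features tested and a threshold of 0.05. The fit had 20 residual degrees of freedom. The p-values rest on the spread between replicates, pooled over the 20 groups of 2 libraries and drawn together across features. Total counts ran between 22889781 and 35440184, and floors of 3 counts cover counting error only, since without molecular identifiers reads cannot be taken as separate molecules. The pseudocount was 1 CPM. Summaries used Python 3.11.15, pandas 2.3.3 and matplotlib 3.10.9. The model was checked on simulated counts.

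The members and the gene lists were chosen with earlier results of these data known. Genes were named if among the 8 highest scores, in a role list, among the 4 highest or the 4 lowest fitted differences averaged over 4 to 8 h, or among the 3 scores on either side of the limit. Alternatives were total counts, no filter, DESeq2 1.42.0, coding features only, members with under 10% overlap, each culture left out, a replicate block, a choice of members on 1 wt culture, and matched progression. Within a strain, pairing by culture was read from hourly aliquots in the growth protocol, and deviations of same-numbered libraries correlated with r between -0.36 and 0.52 over pairs of kloopmut stages and between -0.06 and 0.27 over pairs of wt stages.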

Additional observations from a re-analysis of the deposited data

Results flagged for a closer look

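Between 5 h and 6 h the median change of the 100 genes was 0.48 and 0.42 in the 2 kloopmut cultures and -0.26 and -0.28 in the 2 wt cultures, on the TMM-scaled log2(CPM + 1) scale. Every kloopmut culture moved up and every wt culture down, and the mean difference between strains was 0.72. The rule kept genes highest at 4 h or 5 h in wt, so a fall in wt after 5 h was favoured by the choice itself. The difference between strains was therefore not tested, and nothing is read from its wt side. With total counts the fitted median of this step in kloopmut was 0.02.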

How the results depend on the processing

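Every value below is given against the fit with TMM scaling. With total counts, calls between 6 h and 7 h in kloopmut were 70, in a step where all features had a median of -0.53. The median strain difference with total counts was -0.54, -0.54, -0.049, 1.16, 1.54 and 0.92 at the 6 times from 3 h to 8 h. With DESeq2 the median was -0.55 at 3 h and 0.20 at 6 h, and with coding features alone -0.51 at 3 h and 0.29 at 6 h. Members with under 10% overlap had medians of -0.55 (3 h), -0.21 (5 h), 0.73 (6 h), 1.46 (7 h) and 1.00 (8 h). Members chosen on wt culture 1 and compared with wt culture 2 had -0.57 (3 h), -0.79 (5 h), -0.018 (6 h), 0.83 (7 h) and 0.72 (8 h), so the direction turned at 6 h. With the wt cultures exchanged they had -0.45 (3 h), -0.50 (4 h), -0.11 (5 h), 0.77 (6 h), 1.29 (7 h) and 0.98 (8 h). At matched progression the medians were -0.16 (3 h), -0.083 (4 h), 0.029 (5 h), 0.20 (6 h), -0.049 (7 h) and -0.070 (8 h), the direction turning at 5 h, 7 h and 8 h. The cause was not tested.

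With each culture left out in turn, calls in kloopmut were 43 to 72 for 4 h against 3 h, 47 to 70 for 5 h against 4 h, 34 to 58 for 6 h against 5 h, 19 to 52 for 7 h against 6 h and 21 to 64 for 8 h against 7 h. A left-out kloopmut culture leaves 1 library per kloopmut group, assumed to vary like the other groups. The median strain difference ran from -0.61 to -0.52 (3 h), -0.83 to -0.67 (4 h), -0.73 to -0.67 (5 h), 0.21 to 0.32 (6 h), 0.97 to 1.14 (7 h) and 0.82 to 0.90 (8 h). Differences averaged over 4 to 8 h turned with total counts for adg2 (0.13), rem1 (0.37), mok13 (0.11) and SPAC25B8.08 (0.14), and with DESeq2 for mei4 (-0.0043). With cultures left out, mei4 ran from -0.057 to 0.064 and pof15 from -0.043 to 0.099.

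With culture as a replicate block, 96 members were called in kloopmut for 5 h against -N and 59 for 6 h against 5 h. With the replicate number as a replicate block between strains, 78 were called at 5 h and 85 at 6 h, and no count moved by over 1.5 times. Same-numbered kloopmut and wt libraries deviated together with r between -0.08 and 0.20, so the number does not pair the strains. Depth limits genes such as moa1, and unknown strand limits the 67 genes with an antisense lncRNA.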
